A study of Drosophila melanogaster with 6 samples.

Results

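The genes described here encode the opsins of the compound eye and core parts of the light response of fly photoreceptors. The 10 genes were set by name: *ninaE*, *Rh3*, *Rh4*, *Rh5*, *Rh6*, *Arr1*, *Arr2*, *norpA*, *trp* and *ninaC*. All 10 were found by their FlyBase annotation among 13453 genes, and 21 of the 28071 transcripts in the table belong to them. RNA from dissected brains of male *Drosophila melanogaster* was sequenced in 6 libraries to ask how the sexual identity of the blood–brain barrier (BBB) affects brain RNA. In the feminized males (*SPG-GAL4/UAS-traF*, 2 libraries), the *moody-Gal4* driver placed the female form of Transformer in the subperineurial glia, and not in photoreceptors or neurons by design. Control males carried the driver alone (*SPG-GAL4/+*, 2 libraries) or the transgene alone (*UAS-traF/+*, 2 libraries). Males of the 3 genotypes were in a *w1118* background from outcrossed stocks, were 4 to 5 days old, and were dissected in the middle of the light phase, with many brains pooled per library. Nothing in the labels says more of the replicates than that they are biological, so p-values measure the spread between these pools.

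In fly photoreceptors light converts rhodopsin, an opsin with its chromophore, to an active form that acts through a Gq protein on the phospholipase C encoded by *norpA*. This opens the cation channels TRP and TRPL, and arrestins bind the active rhodopsin and end its signal. *ninaE* encodes the opsin of the outer photoreceptors, *Rh3* and *Rh4* those of the R7 cells, *Rh5* and *Rh6* those of the R8 cells, and *Rh6* is also the opsin of the eyelet, a small extraretinal organ that reaches the brain. *Rh2*, which is not among the 10 genes, is the opsin of the ocelli, the simple eyes on the top of the head.

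The estimated counts summed to between 32839081 and 37608924 per library. Values below are normalized counts, which are estimated counts summed over the transcripts of a gene and scaled to a common library size, or TPM, the usual abundance unit that is also scaled by transcript length. The neuronal marker list (*elav*, *nSyb*, *Syt1*, *brp*, *para*, *Rdl*) summed to 244674 and 233558 normalized counts in feminized brains and to between 203825 and 312159 in controls, where the highest was *SPG-GAL4/+* replicate 1. Of 9 listed genes of the lens and pigment cells, 6 (*Crys*, *Cpr72Ec*, *st*, *bw*, *cn* and *se*) had 2.88 to 18.2 normalized counts in feminized brains and 0.94 to 29.1 in controls. The lens gene *retinin* and the pigment gene *vermilion* (*v*) were at 33.6 to 52.8 in feminized brains and 40.8 to 89.0 in controls. *white* (*w*), a pigment transporter gene that also marks transgenes, had 3516 and 3605 in feminized brains, 2869 and 3244 in *SPG-GAL4/+* brains and 680 and 747 in *UAS-traF/+* brains.

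Per transcript length, *norpA* and *Arr2* were the most abundant of the 10 genes and the opsins of the inner photoreceptors the least. *norpA* averaged 178 ± 29.9 TPM (SD, n = 6 libraries), *Arr2* 153 ± 34.0 TPM, *Arr1* 90.5 ± 18.7 TPM and *ninaE* 68.2 ± 21.1 TPM. *Rh2*, at 174 ± 44.6 TPM, was above *ninaE* in each of the 6 libraries and not distinguishable from *norpA*, which was higher in 3 of 6. Lower down, *ninaC*, which encodes a myosin joined to a protein kinase, averaged 21.7 ± 3.13 TPM. The channel gene *trp* averaged 6.96 ± 1.27 TPM and *Rh6* 6.93 ± 1.63 TPM, with *trp* higher in 3 of 6 libraries, so their order was not resolved. *Rh4* at 5.02 ± 2.11 TPM and *Rh5* at 4.17 ± 0.542 TPM were likewise in that order in 3 of 6 libraries, and *Rh3* was lowest at 3.14 ± 0.945 TPM. The steps from *Arr2* to *Arr1*, from *ninaE* to *ninaC*, from *ninaC* to *trp* and from *Rh6* to *Rh4* held in 6 of 6 libraries, and those from *Arr1* to *ninaE* and from *Rh5* to *Rh3* in 5 of 6.

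**Figure D1:**
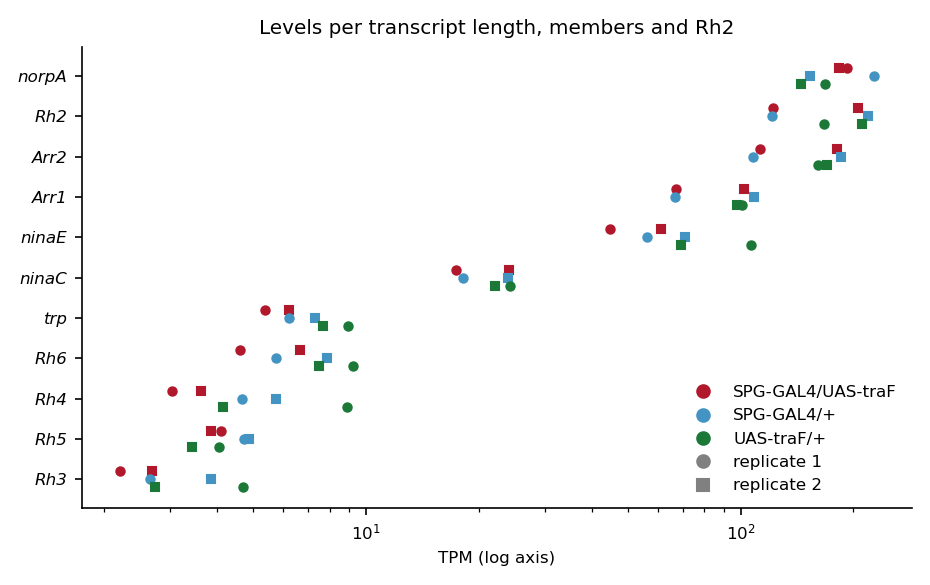
Level of the 10 genes and *Rh2* in each library, in TPM on a log axis, with genes ordered by their mean. Colors mark the genotypes and symbols the replicates. *Rh2* lies above *ninaE* in all 6 libraries, and *Rh3* to *Rh6* and *trp* lie between 2.2 and 9.22 TPM.

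In feminized against control males none of the opsin genes passed the adjusted threshold of 0.1 (edgeR). *ninaE* had 1179 and 1625 normalized counts in feminized brains, 1406 and 1852 in *SPG-GAL4/+* brains and 2916 and 1930 in *UAS-traF/+* brains. The feminized values overlapped those of *SPG-GAL4/+* males and lay below both of the *UAS-traF/+* libraries. The log2 fold change against the 4 controls was -0.53 (standard error 0.27), with an unadjusted p of 0.0862 and an adjusted p of 0.999 (Benjamini-Hochberg) in the quasi-likelihood test of edgeR.

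*Rh4*, an ultraviolet-sensitive opsin, was the 1 gene of the 10 with both feminized libraries below all controls. It had 68.1 and 82.1 normalized counts in feminized brains, 98.7 and 127.8 in *SPG-GAL4/+* brains and 207 and 97.8 in *UAS-traF/+* brains. The log2 fold change was -0.82 (standard error 0.33, unadjusted p = 0.0387, Benjamini-Hochberg adjusted p = 0.999 in edgeR). Replicate 1 of *UAS-traF/+* was the highest library for *Rh4*, and also for *ninaE*, *Rh3*, *Rh6*, *trp* and *ninaC*. Of all genes tested, 8.15% had both feminized libraries below all 4 controls, against 1 of the 10 here.

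*Rh3*, the other ultraviolet-sensitive opsin, had 50.8 and 62.5 normalized counts in feminized brains, 57.9 and 88.4 in *SPG-GAL4/+* brains and 112.8 and 66.5 in *UAS-traF/+* brains. *Rh6*, a green-sensitive opsin, had 107.4 and 157.3 in feminized brains, 127.1 and 181.4 in *SPG-GAL4/+* brains and 223.6 and 183.8 in *UAS-traF/+* brains. For both genes the feminized values fell inside the range of the 4 controls or overlapped it, with log2 fold changes of -0.52 (standard error 0.29) and -0.44 (standard error 0.25). *Rh5*, a blue-sensitive opsin, was the steadiest of the 10, with 102.6 and 100.7 in feminized brains, 116.9 and 118.4 in *SPG-GAL4/+* brains and 109.7 and 92.9 in *UAS-traF/+* brains. Its coefficient of variation over the 6 libraries was 9.3%, near the 9.68% that counting error alone gives at this depth, whereas that of *Rh4* was 44.0% against 9.41% and that of *ninaE* 33.3% against 2.35%.

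In feminized and in *SPG-GAL4/+* males the arrestin genes varied more between the replicates than between these genotypes. *Arr1* had 1603 and 2454 normalized counts in feminized brains, 1501 and 2565 in *SPG-GAL4/+* brains and 2501 and 2455 in *UAS-traF/+* brains. *Arr2*, the more abundant of the arrestins, had 2899 and 4678 in feminized brains, 2621 and 4699 in *SPG-GAL4/+* brains and 4292 and 4611 in *UAS-traF/+* brains. Replicate 1 was the low library for both genes in feminized and in *SPG-GAL4/+* males, with replicate 2 above it by 0.69 and 0.84 on the log2 scale for *Arr2*. The log2 fold changes in feminized against control males were -0.15 (standard error 0.24) for *Arr1* and -0.10 (standard error 0.26) for *Arr2*.

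*norpA*, which serves signaling in other neurons beside photoreceptors, was the 1 gene of the 10 with a higher mean in feminized males. It had 24196 and 23189 normalized counts in feminized brains, 27196 and 19097 in *SPG-GAL4/+* brains and 21995 and 19113 in *UAS-traF/+* brains. The feminized values lay between the highest and the second control, with a log2 fold change of 0.12 (standard error 0.16). *trp* had 369 and 431 normalized counts in feminized brains, 405 and 495 in *SPG-GAL4/+* brains and 636 and 553 in *UAS-traF/+* brains, a log2 fold change of -0.39 (standard error 0.17, unadjusted p = 0.0564, adjusted p = 0.999 with edgeR and Benjamini-Hochberg adjustment). *ninaC* had 1154 and 1587 in feminized brains, 1162 and 1569 in *SPG-GAL4/+* brains and 1707 and 1544 in *UAS-traF/+* brains, a log2 fold change of -0.13 (standard error 0.17).

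**Figure D2:**
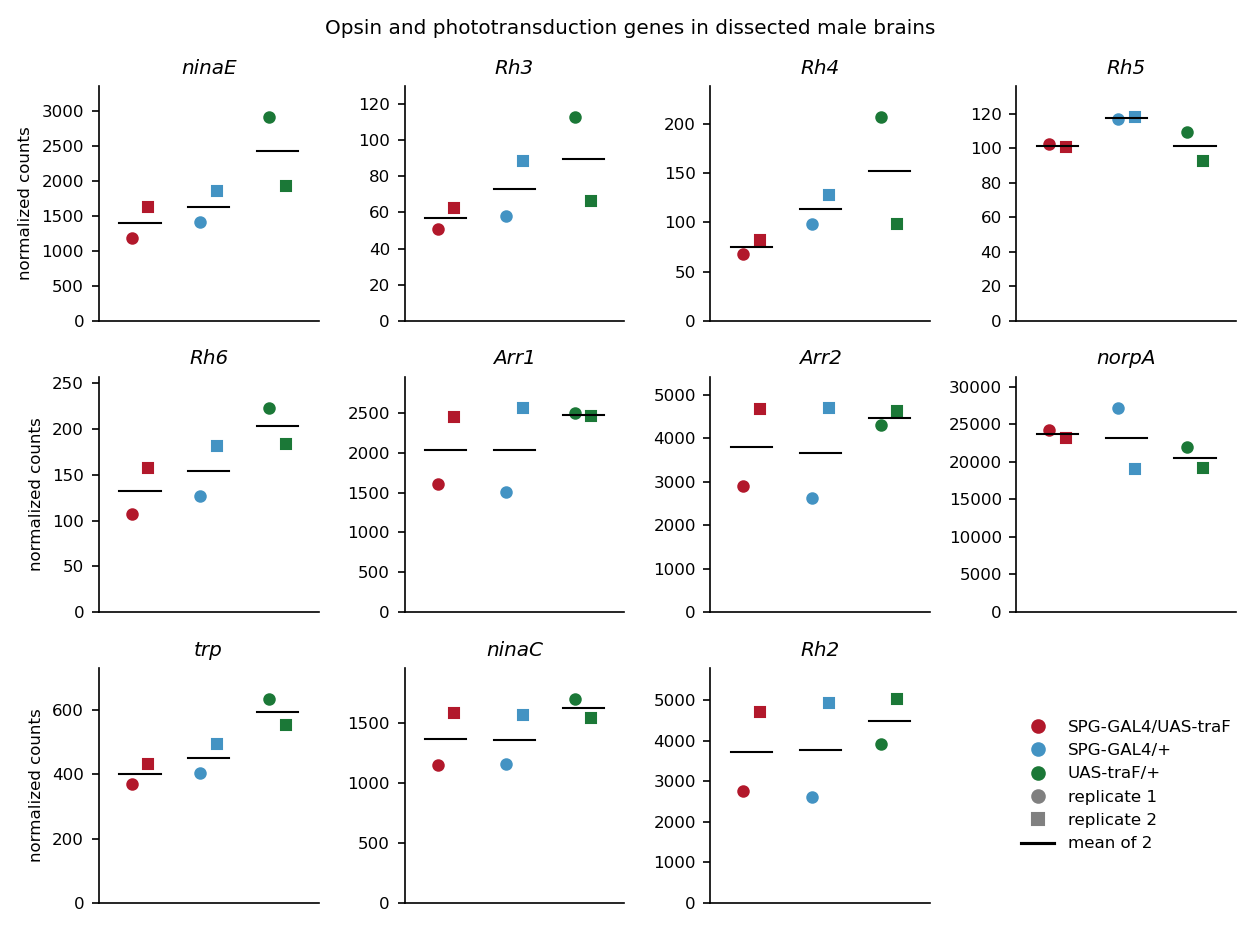
Normalized counts of the 10 genes and *Rh2* in each library, 1 panel per gene with its own axis from 0. Points are libraries and bars the mean of 2. *Arr1*, *Arr2* and *Rh2* have low replicate 1 libraries in feminized and *SPG-GAL4/+* males, and *ninaE*, *Rh3*, *Rh4* and *Rh6* have a high *UAS-traF/+* replicate 1.

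Across all 9777 genes tested in feminized against control males in the quasi-likelihood test of edgeR, 0 (0%) passed an adjusted p below 0.1, and 0 of the 10 genes did. An unadjusted p below 0.05 was found for 4.68% of all genes and for 1 of the 10, *Rh4*. DESeq2 called 0 of the 10 and found 2 with an unadjusted p below 0.05, and limma-voom called 0 and found 0. Here and below, shares of all genes at an unadjusted p below 0.05 are from edgeR only. The median log2 fold change was -0.27 over the 10 genes, with 9 negative values, and -0.009 over all genes tested. Several of these genes rose and fell together over the libraries, so the 9 signs are not separate observations. Without feminized replicate 1, *Arr1*, *Arr2* and *ninaC* were positive, at 0.13, 0.21 and 0.09. In bulk brain tissue, fewer cells of a type and less RNA per cell cannot be told apart.

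Against each control genotype alone, the values for *ninaE*, *Rh3*, *Rh4*, *Rh6* and *trp* lay further below *UAS-traF/+* males than below *SPG-GAL4/+* males. *Arr1*, *Arr2* and *ninaC* also had lower log2 fold changes against *UAS-traF/+* males, at -0.29, -0.23 and -0.25. Against *SPG-GAL4/+* males theirs were -0.01, 0.05 and 0.004. *Rh5* and *norpA* went the other way. These comparisons share the feminized libraries, and the difference between the controls is given by their own contrast. In feminized against *UAS-traF/+* males, edgeR gave a log2 fold change of -0.79 for *ninaE* (standard error 0.24, unadjusted p of 0.013), -1.02 for *Rh4* (standard error 0.35, unadjusted p of 0.0238), -0.62 for *Rh6* (standard error 0.25, unadjusted p of 0.0404) and -0.57 for *trp* (standard error 0.14, unadjusted p of 0.00448). These were the 4 of 10 genes with an unadjusted p below 0.05, against 7.14% of all genes. With edgeR and Benjamini-Hochberg adjustment their adjusted p-values were 0.475 to 0.666, and 0 of the 10 passed 0.1, against 10 genes or 0.102% of all. DESeq2 and limma-voom also called 0 and found 4 each with an unadjusted p below 0.05, without a share of all genes for these tools. Both feminized libraries were below both *UAS-traF/+* libraries in 6 of the 10 genes, *ninaE*, *Rh3*, *Rh4*, *Rh6*, *Arr1* and *trp*, against 29.8% of all genes. *Arr1* was a near tie, with 2453.8 normalized counts in feminized replicate 2 and 2454.5 in *UAS-traF/+* replicate 2. *Rh5*, at 0.01, *norpA*, at 0.21, and the other 4 genes, at -0.23 to -0.66, had an unadjusted p above 0.05. *trp* passed the threshold when either *SPG-GAL4/+* library was left out of the common fit, with an adjusted p of 0.0717 without replicate 1 and 0.0648 without replicate 2 (edgeR with Benjamini-Hochberg adjustment), in a range of 0.0648 to 1 over all alternatives. In these fits 405 and 413 genes in all passed, against 10 with all libraries.

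In feminized against *SPG-GAL4/+* males, the log2 fold changes of the 10 genes ran from -0.60 for *Rh4* to 0.05 for *Arr2*, with a median of -0.192. None of the 10 had an unadjusted p below 0.05 with edgeR, DESeq2 or limma-voom, against 5.84% of all genes with edgeR, and 0 passed the adjusted threshold, against 0.0102% of all.

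The control genotypes themselves also differed in *ninaE* and *trp* before adjustment for all genes. In *SPG-GAL4/+* against *UAS-traF/+* males, *ninaE* was at -0.57 (standard error 0.24, unadjusted p of 0.0471) and *trp* at -0.40 (standard error 0.14, unadjusted p of 0.0234), with adjusted p-values of 0.643 and 0.596 from edgeR with Benjamini-Hochberg adjustment. These were 2 of 10 with an unadjusted p below 0.05, against 7.71% of all genes, and 0 of the 10 passed the adjusted threshold, against 0.215% of all. DESeq2 called 0 with 2 at an unadjusted p below 0.05, and limma-voom 0 with 1, again without a share of all genes for these tools. Without *SPG-GAL4/+* replicate 2, 7 of the 10 passed, as did 3856 genes in all, against 21 with all libraries. Of the 7, *ninaE*, *Rh6*, *Arr1*, *Arr2*, *trp* and *ninaC* were lower and *norpA* higher in the remaining *SPG-GAL4/+* library, which is then assumed to vary like the other groups. With the trend of counts with gene length removed, the log2 fold change of *norpA* in this contrast was -0.03, against 0.17 without that step.

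**Figure D3:**
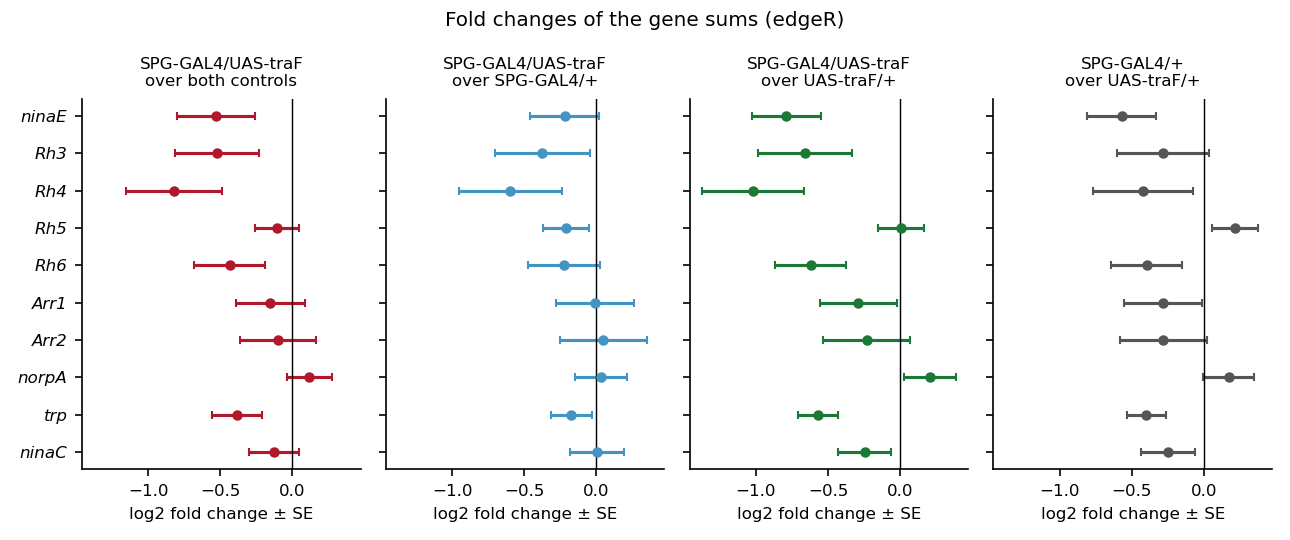
Log2 fold change of the 10 genes in 4 comparisons, with bars of 1 standard error (edgeR, gene sums). The values for *ninaE*, *Rh4*, *Rh6* and *trp* over *UAS-traF/+* lie between -1.02 and -0.57, and those over *SPG-GAL4/+* between -0.60 and -0.17.

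The 10 genes did not vary together over the 6 libraries. In their log2 normalized counts, *Rh3*, *Rh4*, *Rh6* and *trp* followed *ninaE*, with Pearson's r of 0.93, 0.92, 0.96 and 0.97, whereas *Arr1* and *Arr2* followed the ocellar opsin *Rh2* more closely, with r of 0.95 and 0.98 against 0.74 and 0.65 with *ninaE*. *ninaC* had like values with both, 0.85 with *ninaE* and 0.87 with *Rh2*. *norpA* ran against both, with r of -0.51 and -0.87, and *Rh5* followed neither (0.04 and -0.33). These are descriptions over 6 libraries, which share their normalization and hold 3 genotypes. *ninaE*, *Rh3*, *Rh4*, *Rh6* and *trp* were all highest in *UAS-traF/+* replicate 1, and their r without that library is not given here.

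Ratios within a library, which do not depend on its scaling, showed the same split. The ratio of *Arr2* to *Rh2* counts was 1.05 and 0.997 in feminized brains, 1.01 and 0.955 in *SPG-GAL4/+* brains and 1.09 and 0.916 in *UAS-traF/+* brains. It thus stayed within a range of 1.19-fold, while *Arr2* itself and its ratio to *ninaE* moved more. The ratio of *Arr2* to *ninaE* was 2.46 and 2.88 in feminized brains, 1.86 and 2.54 in *SPG-GAL4/+* brains and 1.47 and 2.39 in *UAS-traF/+* brains. The SD of the log2 ratio was 0.092 over *Rh2* and 0.354 over *ninaE* for *Arr2*, and 0.139 and 0.301 for *Arr1*. The opposite held for *Rh6* (0.293 over *Rh2*, 0.13 over *ninaE*), *Rh3* (0.432 and 0.161), *Rh4* (0.601 and 0.234) and *trp* (0.339 and 0.178). For *Rh6* and *Rh3* the SD over *ninaE* was close to the counting error of 0.122 and 0.179. *ninaC* at 0.242 and 0.271, *Rh5* at 0.487 and 0.463 and *norpA* at 0.607 and 0.576 were near equal over both opsins. In all, 3 of 9 genes varied less with *Rh2* than with *ninaE* (*Arr1*, *Arr2* and *ninaC*). With each library left out in turn this count was 2 to 5. *Arr1* and *Arr2* were among them every time, *ninaC* was not without *UAS-traF/+* replicate 1, and the count was 5 without *SPG-GAL4/+* replicate 1 or without *UAS-traF/+* replicate 2.

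**Figure D4:**
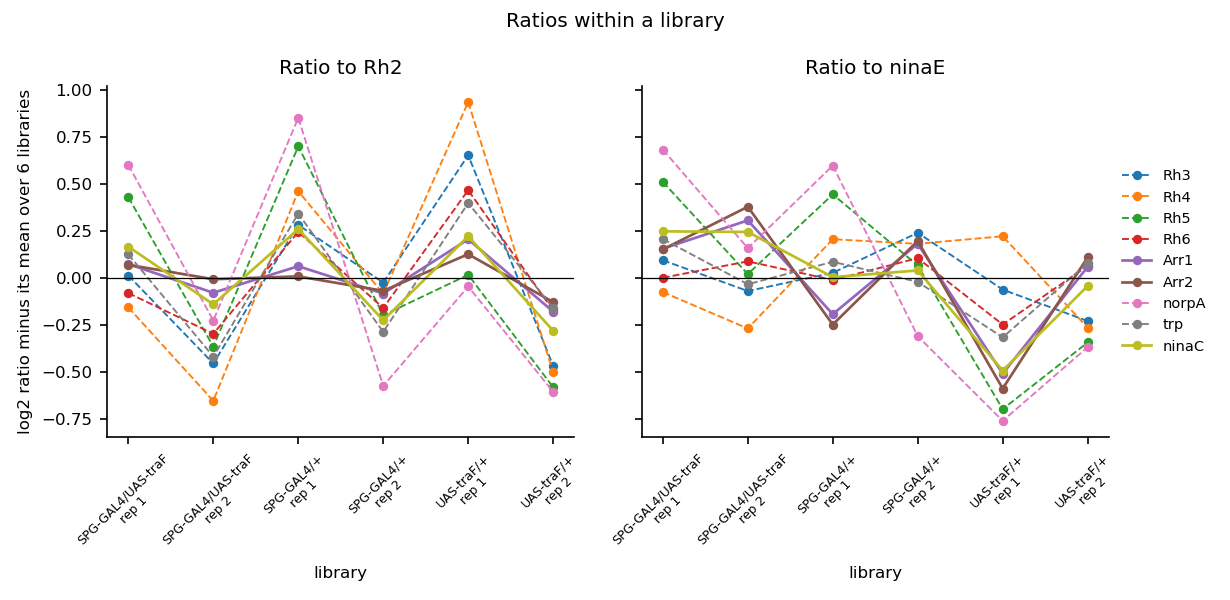
Log2 ratio of each of 9 genes to *Rh2* (left) and to *ninaE* (right) in each library, as the difference from its mean over the 6 libraries. *Arr1*, *Arr2* and *ninaC* are drawn with solid lines. The line of *Arr2* is the flattest over *Rh2*, with an SD of 0.092.

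The ratio of *Rh2* to *ninaE* was itself 2.34 and 2.89 in feminized brains, 1.85 and 2.66 in *SPG-GAL4/+* brains and 1.35 and 2.61 in *UAS-traF/+* brains, lower in replicate 1 than in replicate 2 of each genotype. Of 47 genes in 4 lists (other phototransduction, chromophore, histamine cycle and photoreceptor structure genes), most showed no such split. The SD of the log2 ratio was lower over *ninaE* by at least 0.05 in 11, lower over *Rh2* by at least 0.05 in 9, and within 0.05 of equal in 27, a margin chosen after the values were seen. The 27 include genes also used outside photoreceptors, such as *Cam* (0.546 over *ninaE*, 0.568 over *Rh2*) and *Ggamma30A* (0.588 and 0.615). For a gene expressed mostly in other cells, these ratios cannot show a split. Among the clearest on each side, the SD of the log2 ratio over *ninaE* was 0.097 for *trpl*, which encodes the second channel, and 0.147 for *chp*, which encodes the adhesion protein chaoptin, against 0.372 and 0.391 over *Rh2*. For *inaC*, which encodes the eye protein kinase C, and *Pdh*, a retinol dehydrogenase gene of pigment cells, it was 0.144 and 0.153 over *Rh2*, against 0.355 and 0.327 over *ninaE*. The share of the RNA that came from the retina, the eyelet or the ocelli was not tested.

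The balance of opsins was compared as 5 ratios, 2 within the inner photoreceptors and 3 of inner opsins to *ninaE*, with an exact permutation test of 2 against 4 libraries (two-sided) that cannot go below p = 0.133. The ratio of *Rh4* to *Rh3* counts was 1.34 and 1.31 in feminized brains, 1.71 and 1.45 in *SPG-GAL4/+* brains and 1.84 and 1.47 in *UAS-traF/+* brains. Feminized males were below all 4 controls, a difference of -0.28 on the log2 scale with an exact p of 0.133, adjusted to 0.5 over the 5 ratios. This ratio rests on few counts per library, 51 to 109 for *Rh3* and 71 to 200 for *Rh4*. Counting error alone is 11.7% for *Rh3* and 9.41% for *Rh4*. The ratio of *Rh6* to *Rh5* was 1.05 and 1.56 in feminized brains, 1.09 and 1.53 in *SPG-GAL4/+* brains and 2.04 and 1.98 in *UAS-traF/+* brains, and here the feminized and *SPG-GAL4/+* values overlapped (exact permutation p = 0.4). The *Rh6* to *ninaE* ratio varied least, with 0.0911 and 0.0968 in feminized brains and 0.0767 to 0.098 in controls (exact permutation p = 0.8). The summed R7 opsins over *ninaE* differed by -0.15 on the log2 scale and the summed R8 opsins by 0.20 (exact permutation p = 0.4 for each).

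At the level of transcripts, 18 of the 21 could be tested in feminized against control males. Of these 0 passed an adjusted p below 0.1 in the quasi-likelihood test of edgeR, against 0.0142% of 21198 transcripts, and 0 had an unadjusted p below 0.05, against 5.33%. Positions are on the BDGP6.54 annotation of Ensembl. *norpA* (chromosome X, 4322626 to 4365408) was carried by *norpA-RD*, with 87.8% of the gene's counts (85.3% to 91.2% over the 6 libraries). *norpA-RC* held 6.22% and *norpA-RE* 5.94%, *norpA-RB* had 0 counts in each library, and *norpA-RF* had 34 counts in *SPG-GAL4/+* replicate 2, 42 in *UAS-traF/+* replicate 2 and 0 elsewhere. All 5 have a coding length of 1095 codons, but not the same coding exons. *norpA-RC*, *norpA-RD* and *norpA-RF* use a coding exon of 80 bases at 4353944 to 4354023, and *norpA-RB* and *norpA-RE* use another of 80 bases at 4354471 to 4354550 in its place. Transcripts with the second of these exons took 6.26% and 7.04% of the *norpA* counts in feminized brains, 5.60% and 4.95% in *SPG-GAL4/+* brains and 6.32% and 5.19% in *UAS-traF/+* brains, and the groups overlapped. *norpA-RA* was not analysed here.

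*ninaC* (chromosome 2L, 7377702 to 7384344) makes a long and a short protein. *ninaC-RD*, with 1135 codons, held 64.4% of the counts (58.0% to 70.9%), and *ninaC-RB*, with 1501 codons, 30.3% (24.5% to 36.3%). *ninaC-RB* had 327 and 420 normalized counts in feminized brains, 422 and 384 in *SPG-GAL4/+* brains and 607 and 498 in *UAS-traF/+* brains, a log2 fold change of -0.36 (standard error 0.23). *ninaC-RD* had 727 and 1125 in feminized brains, 674 and 1062 in *SPG-GAL4/+* brains and 994 and 1014 in *UAS-traF/+* brains, a log2 fold change of -0.02 (standard error 0.26). The short form thus followed the low replicate 1 libraries of the arrestins in feminized and *SPG-GAL4/+* males, and the long form did not do so in *SPG-GAL4/+* males. *Arr1-RA* held 99.5% of *Arr1*, and *trp-RA* 94.5% of *trp*. *Rh5-RB* held 87.0% of *Rh5* (64.3% to 100%), where the remainder, *Rh5-RA*, was at 0 counts in replicate 1 of both control genotypes. The estimates split reads between transcripts that overlap, so the shares are less certain than the gene sums. *ninaE*, *Rh3*, *Rh4*, *Rh6* and *Arr2* have 1 transcript each in the table.

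The rest of the pathway was looked at by lists. Of 19 other phototransduction genes, 0 passed the adjusted threshold in any of the 4 comparisons. In feminized against control males 12 of their log2 fold changes were negative and 7 positive, with a median of -0.072. The most abundant, *Cam* (calmodulin), *Ggamma30A* (the gamma subunit of the eye Gq protein) and *Cds* (CDP-diacylglycerol synthase), are also used outside photoreceptors and had between 20140 and 178356 normalized counts per library. The 1 gene with an unadjusted p below 0.05, *inaF-B*, whose product supports the TRP channel, had 121.8 and 161.2 normalized counts in feminized brains, 152 and 188.9 in *SPG-GAL4/+* brains and 260.8 and 304.1 in *UAS-traF/+* brains. Its log2 fold change against the controls was -0.68 (standard error 0.29, Benjamini-Hochberg adjusted p = 0.999 in edgeR).

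Of 10 genes for rhodopsin maturation and the chromophore, 0 passed in any comparison, and their median log2 fold change in feminized against control males was 0.081. *ninaB*, the enzyme that cleaves carotenoids to make the chromophore, had 7629 and 7059 normalized counts in feminized brains, 5379 and 5042 in *SPG-GAL4/+* brains and 7248 and 6331 in *UAS-traF/+* brains. Of 8 genes of the histamine cycle, which recycles the photoreceptor transmitter, 0 passed, and the median was 0.027. *CarT*, the carcinine transporter of photoreceptors, had 57.6 and 52.8 in feminized brains, 72.6 and 80.8 in *SPG-GAL4/+* brains and 93.2 and 79.2 in *UAS-traF/+* brains. *ebony* (*e*), the glial enzyme that makes carcinine from histamine, had 6348 and 6330 in feminized brains, 5530 and 4968 in *SPG-GAL4/+* brains and 5440 and 4738 in *UAS-traF/+* brains. Both genes had feminized libraries outside the range of the controls, with log2 fold changes of -0.56 (standard error 0.17) and 0.29 (standard error 0.09) and adjusted p-values of 0.847 with edgeR and Benjamini-Hochberg adjustment. Of all genes tested, 8.15% had both feminized libraries below all controls, as *CarT* did, and 5.58% had both above, as *e* did. The 5 glial markers (*repo*, *nrv2*, *moody*, *Gs2* and *alrm*) also summed highest in feminized brains, at 240334 and 244002 normalized counts against 191312 to 234419 in controls. Most of the sum was *Gs2* and *nrv2*. *Gs2*, *alrm* and *moody* were above all controls in both feminized libraries, and *nrv2* and *repo* were not. *repo* had 5091 and 5512 in feminized brains and 5000 to 5711 in controls. The part of glial RNA in the value of *e* was not tested. *Hdc*, which makes histamine, had 471 and 500 in feminized brains and 430 to 507 in controls. Of 9 tested genes of photoreceptor structure and eye transcription factors 0 passed, with a median of -0.035.

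Of the 9 listed lens and pigment cell genes, 6 could be tested. *w* passed in feminized against *UAS-traF/+* males (log2 fold change 2.32, adjusted p = 0.000458, edgeR with Benjamini-Hochberg adjustment). It also passed in *SPG-GAL4/+* against *UAS-traF/+* males (2.10, adjusted p = 0.00088, same test). Of all genes, 0.102% and 0.215% passed in these comparisons. *w* also marks transgenes, which differ between the genotypes, and the part of pigment cells in its level was not tested. *retinin*, a gene of the corneal lens, had 48.0 and 41.0 normalized counts in feminized brains, 53.3 and 60.2 in *SPG-GAL4/+* brains and 83.8 and 89.0 in *UAS-traF/+* brains. By their means this is the same order of genotypes as for *ninaE*, *Rh4* and *trp*. Of the other listed genes, *v* and *Cpr72Ec* had that order too, and the rest did not. *Crys* was highest in feminized brains, and *st* and *bw* were highest in *SPG-GAL4/+* brains. *cn* and *se* were lowest in *SPG-GAL4/+* brains, and *w* was lowest in *UAS-traF/+* brains. Besides the eye, summed markers of the antenna and proboscis (4 genes) were 371.2 and 368.4 in feminized brains and 369.6 to 586.9 in controls. *UAS-traF/+* replicate 1 was highest, followed by *SPG-GAL4/+* replicate 2 at 558.3. *Obp83a* and *lush* were highest in the first of these, *Obp19d* in the second and *Orco* in *SPG-GAL4/+* replicate 1. Those of the testis (5 genes) were 11.5 and 18.6 in feminized brains and 13.6 to 116.6 in controls, with *SPG-GAL4/+* replicate 2 highest. Those of hemocytes (3 genes, *Hml*, *NimC1* and *eater*) were 2288 and 3345 in feminized brains, 1789 and 3851 in *SPG-GAL4/+* brains and 2167 and 2500 in *UAS-traF/+* brains, lower in replicate 1 than in replicate 2 of each genotype. Fat body markers (6 genes) summed to 41874 and 40470 in feminized brains and 34448 to 43677 in controls, mostly *apolpp*. Among them *takeout* (*to*) had 103.5 in *UAS-traF/+* replicate 1 and 4.89 to 14.75 elsewhere. *apolpp* was also highest there, *Yp1*, *Yp2* and *Fbp1* in *SPG-GAL4/+* replicate 1 and *Lsp2* in feminized replicate 2. Muscle markers (5 genes) summed to 5807 and 5538 in feminized brains and 5545 to 6212 in controls. The part of carried-over tissue in the levels of the 10 genes was not tested.

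The gene sums of the 10 were dominated by *norpA*, which took 62.0% to 78.4% of them. Among 9767 other genes, the 5 most like this sum over the 6 libraries were *CG4452* (r = 0.99), *CG34312* (r = 0.97), *exex* (r = 0.96), *CG30058* and *CG34235* (r = 0.96 each, with the same normalized counts in each library). Without *norpA* the sum was 7533 and 11177 in feminized brains, 7495 and 11696 in *SPG-GAL4/+* brains and 12704 and 11534 in *UAS-traF/+* brains. The 5 genes most like that sum were *CG8814* (r = 0.99), *DIP-iota* (r = 0.99), *CG17168* (r = 0.99), the glial gene *repo* (r = 0.98) and *CG33110* (r = 0.98). With 6 libraries and so many genes, high values of r occur for some genes in any case, and those here are a description.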

How the data were processed

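Poly-A RNA of whole brains was sequenced in 6 libraries of 3 genotypes. The values are estimated counts for each transcript, which the authors obtained with Kallisto and deposited rounded to whole numbers and not normalized. The Kallisto version, transcriptome release and build are not given in the sources used here. All value columns were used (0 left out). Transcripts were placed in genes with the Ensembl annotation BDGP6.54, and 10 of 28071 identifiers without a match, 0.00609% of the counts, were left out. Gene sums were compared in R 4.3.3 with edgeR 4.0.16 (TMM, default filter on low counts, quasi-likelihood test, Benjamini-Hochberg adjustment over all genes tested, threshold adjusted p below 0.1), with both controls together and in a fit with 3 genotypes. TPM were computed from the counts and the annotated lengths. The tests were tested on simulated data. Alternatives were DESeq2 1.42.0, edgeR with the DESeq2 size factors, a threshold of 0.05, testing without the filter or with a minimum of 10 counts per library, limma-voom (limma 3.58.1), a replicate block, the 3-genotype fit for the pooled contrast, removal of the trend with gene length and leaving out each library. Genes and lists were chosen with earlier results of these data known. Named genes were the 10 genes, their transcripts, genes of the lists and the 5 genes most correlated with the summed counts; the version without *norpA* was added after the data were seen. The list symbol LOVIT was not matched and is not analysed here.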

Additional observations from a re-analysis of the deposited data

Results flagged for a closer look

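*Arr1* in *SPG-GAL4/+* replicate 1, with 1501 normalized counts, stood far below the other 3 control libraries, which had 2455 to 2565. Among 10 genes examined in this way in the 4 controls, it was the 1 with a library that far from the others. Chance alone marks about 1 in 20 such groups for each gene examined, so 1 mark among 10 genes is not unusual. The 4 libraries also hold both control genotypes. The feminized libraries had 1603 and 2454. *Arr2* and *Rh2* were also lowest in that library, at 2621 and 2604 normalized counts, where the neuronal markers summed highest and the trend of counts with gene length was steepest, at 0.126 log2 units per doubling of length. The part of these in the value was not tested.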

How the results depend on the processing

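With 2 libraries per genotype, small differences could not be detected, and leaving out 1 library leaves a genotype with 1 that is assumed to vary like the others. The number of the 10 genes called stayed at 0 in feminized against control and against *SPG-GAL4/+* males under every alternative. With single libraries left out it was 0 to 1 in feminized against *UAS-traF/+* males (*trp*, without *SPG-GAL4/+* replicate 1 or replicate 2), and 0 to 7 in *SPG-GAL4/+* against *UAS-traF/+* males (7 without *SPG-GAL4/+* replicate 2). The labels do not say whether the replicate numbers pair the libraries. Correlations of the replicate differences between genotypes were -0.03, -0.19 and 0.24, which with so few libraries cannot settle it. With the replicate block, edgeR called 0 of the 10 genes in each comparison. DESeq2 with the replicate block, chosen after seeing the data, called 1, *ninaE* in feminized against *UAS-traF/+* males (adjusted p = 0.0972 in a range of 0.0972 to 1 over all alternatives).

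Counts over all genes moved by more than 1.5 times. In feminized against control males, 0 genes passed, against 24 with DESeq2, 31 with DESeq2 and the replicate block, 1 to 2 with the length trend removed or 3 genotypes fitted, and 0 to 240 with single libraries left out (240 without *SPG-GAL4/+* replicate 1). In feminized against *SPG-GAL4/+*, feminized against *UAS-traF/+*, and *SPG-GAL4/+* against *UAS-traF/+* males the counts were 1, 10 and 21 genes, against 40, 57 and 95 with DESeq2, 28, 55 and 87 with the replicate block, 17, 59 and 69 with the length trend removed, 139, 185 and 236 with both, 39, 59 and 66 with DESeq2 and the block, and 5, 19 and 34 with no filter. Limma-voom gave 2 in place of 1, as did at least 10 counts in every library, and a threshold of 0.05 gave 3 in place of 10. Single libraries left out gave 0 to 2010, 3 to 413 and 6 to 3856. Of transcripts, 3 passed, against 281 with DESeq2 and 0 to 4 with single libraries left out.

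Log2 fold changes near 0 changed sign. Leaving out single libraries gave, in feminized against control males, -0.48 to 0.13 for *Arr1*, -0.47 to 0.21 for *Arr2*, -0.36 to 0.09 for *ninaC*, -0.37 to 0.28 for *ninaC-RD* and -0.49 to 0.14 for *Arr1-RA*. Against *SPG-GAL4/+* males it gave -0.51 to 0.061 for *Rh6*, -0.34 to 0.44 for *Arr1*, -0.32 to 0.53 for *Arr2*, -0.20 to 0.32 for *norpA* and -0.23 to 0.24 for *ninaC*. Against *UAS-traF/+* males it gave -0.11 to 0.13 for *Rh5* and -0.60 to 0.079 for *Arr2*. In *SPG-GAL4/+* against *UAS-traF/+* males it gave -0.63 to 0.14 for *Rh3*, -0.87 to 0.21 for *Rh4*, -0.73 to 0.06 for *Arr1*, -0.77 to 0.087 for *Arr2* and -0.10 to 0.40 for *norpA*. *Arr1* against *SPG-GAL4/+* males, -0.01 in edgeR, was 0.002 with DESeq2, 0.016 with no filter, 0.022 with limma-voom, 0.006 with the replicate block and 0.013 with DESeq2 and the block. With at least 10 counts in every library *ninaC* was at -0.003. With the length trend removed, *norpA* in *SPG-GAL4/+* against *UAS-traF/+* males was at -0.026, and with the block as well at -0.025. The causes were not tested.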
